A study of Homo sapiens with 6 samples.

Results

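The genes described here are TXNIP, the alpha-arrestins ARRDC1, ARRDC2, ARRDC3 and ARRDC4, and MLXIP, which encodes the glucose sensor MondoA. They were chosen by name, with earlier results of these data known. All 6 had a row among the 15651 genes measured, and all 6 were among the 15246 genes that passed the filter on low values. RNA sequencing was performed on MDA-MB-231 cells, an established human line of triple-negative breast cancer, treated with the vehicle DMSO (n = 3) or with BRL-50481 (n = 3), an inhibitor of the cAMP phosphodiesterase PDE7A. The treatment text gives 50 μM of BRL-50481 for 72 h, whereas a treatment tag of the same samples gives 5 μM for 48 h. The study describes the 3 libraries of each group as biological replicates, and all 6 come from the same cell line, grown in DMEM with fetal bovine serum. BRL-50481 inhibits an enzyme and deletes no gene, so no targeted transcript checks the labels.

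Alpha-arrestins are adaptor proteins with an arrestin fold, and most of them carry short proline-rich motifs that recruit ubiquitin ligases of the NEDD4 family to membrane cargo. TXNIP, the best-studied member, binds reduced thioredoxin, promotes the internalization of the glucose transporters GLUT1 and GLUT4, and restrains glucose uptake. MondoA pairs with MLX, enters the nucleus when glucose-6-phosphate rises, and activates TXNIP and ARRDC4 through carbohydrate response elements in their promoters. AMP-activated protein kinase phosphorylates TXNIP and marks it for degradation, so the protein can change without its mRNA. In breast cancer cells TXNIP is known as a brake on glycolysis, and MYC is known to compete with MondoA at its promoter.

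Between 30750573 and 33446984 reads per library were assigned to genes. At an adjusted p-value under 0.05 in limma, 4400 genes were higher and 4546 lower in BRL-50481-treated cells, and the median log2 fold change of all genes tested was 0.015. All 6 of the MDA-MB-231 markers VIM, CD44, AXL, CAV1, MSN and EGFR were detected and higher, and their summed normalized counts ranged from 177856 to 179824 with DMSO and from 239046 to 242202 with BRL-50481. Of 8 markers of other cell types 4 were measured (CD14, PECAM1, PDGFRB and COL1A1), with sums of 1381 to 1457 with DMSO and 1543 to 1762 with BRL-50481. PECAM1 and PDGFRB were higher, CD14 and COL1A1 were not called, and PTPRC, CD3E, ADIPOQ and ALB were not analysed here. Of the 5 hormone receptor and luminal markers, 4 were measured, with sums of 2397 to 2570 with DMSO and 2643 to 2769 with BRL-50481. ERBB2 and CDH1 were higher, EPCAM was lower, PGR did not pass the filter and ESR1 was not analysed here. The part of these markers in the results was not tested. Replicate 1 of DMSO stood farthest from its group, with a residual SD of 0.141 (log2) against 0.0791 to 0.119 in the other 5 libraries, so results that turn on it are given with and without it.

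BRL-50481 treatment lowered the mRNA of 5 of the 6 genes, and 0 of the 6 were higher. The calls of TXNIP, ARRDC4 and MLXIP held under all 18 alternatives, whereas ARRDC1 was called in 11 and ARRDC2 in 12 of the 18, and the groups of ARRDC1 overlapped. Among all genes tested, 29.8% were lower and 28.9% higher, and 58.7% were called in either direction. ARRDC4 fell to 60.1% of its DMSO level, TXNIP to 75.9%, MLXIP to 79.1%, ARRDC1 to 83.0% and ARRDC2 to 86.8%, and ARRDC3 was the member that did not pass the test. The 2 groups did not overlap for 4 of the 6 genes (TXNIP, ARRDC2, ARRDC4 and MLXIP), against 64.2% of all genes tested. The median log2 fold change of the 6 genes was -0.30. In bulk RNA, fewer cells that express a gene and less of its RNA per cell cannot be told apart.

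**Figure D1:**
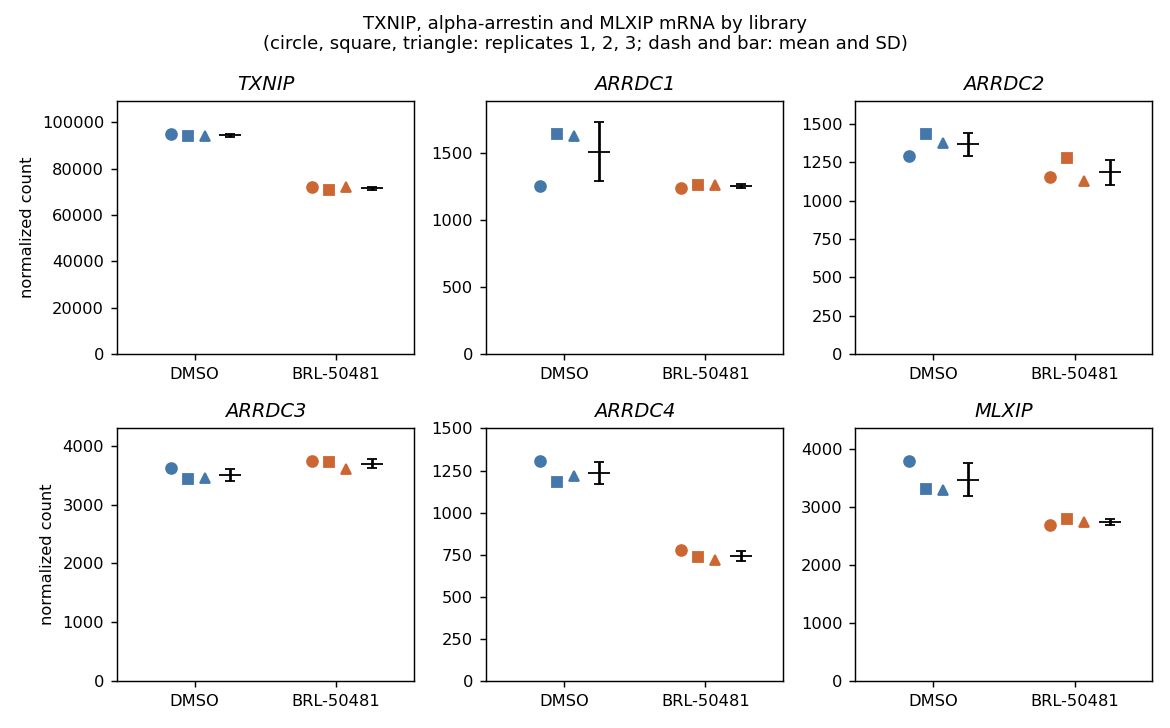
Normalized count of each gene in each library, with 1 panel per gene, a linear axis from 0, points for libraries and bars for the mean and SD of 3 libraries. TXNIP, ARRDC4 and MLXIP show 2 separate groups of points, and the highest BRL-50481 point of ARRDC2 lies just below its lowest DMSO point. DMSO replicate 1 of ARRDC1 lies at the level of the BRL-50481 libraries, and the ARRDC3 groups overlap.

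The promoters of TXNIP and ARRDC4 are shown because MondoA is known to act on both, and that of MLXIP because it encodes MondoA and holds a cAMP response element, the site of the transcription factor CREB. Each line is the 250 bases before the first RefSeq start site (GRCh38.p14), 5′ to 3′ on the strand of the gene, and capitals mark the motifs that were found. They come from chr1:145996580-145996829 (minus strand), chr15:97960453-97960702 (plus strand) and chr12:122078506-122078755 (plus strand).
TXNIP: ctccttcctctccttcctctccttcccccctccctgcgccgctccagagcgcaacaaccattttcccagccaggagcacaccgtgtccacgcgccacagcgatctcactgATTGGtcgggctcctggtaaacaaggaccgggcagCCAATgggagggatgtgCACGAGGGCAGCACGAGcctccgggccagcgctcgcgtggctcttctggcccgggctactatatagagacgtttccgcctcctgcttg
ARRDC4: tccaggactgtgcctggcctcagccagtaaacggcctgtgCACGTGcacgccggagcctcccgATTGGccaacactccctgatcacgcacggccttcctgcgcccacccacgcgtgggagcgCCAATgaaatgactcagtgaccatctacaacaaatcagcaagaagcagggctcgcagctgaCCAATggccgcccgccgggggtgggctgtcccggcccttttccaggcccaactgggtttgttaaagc
MLXIP: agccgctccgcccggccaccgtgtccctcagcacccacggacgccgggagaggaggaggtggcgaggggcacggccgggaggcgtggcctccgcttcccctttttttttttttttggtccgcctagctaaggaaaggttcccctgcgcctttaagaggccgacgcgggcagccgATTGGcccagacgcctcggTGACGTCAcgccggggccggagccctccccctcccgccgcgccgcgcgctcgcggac
Both strands were searched for 4 motifs, so ATTGG is a CCAAT box on the other strand. A carbohydrate response element was counted as 2 copies of CACGNG separated by 5 bases. The TXNIP window holds 1, which begins 88 bases before the start site, and 16 of 34943 upstream windows of all genes hold such a pair (0.0458%). The ARRDC4 window holds no such pair and has a single E-box, CACGTG, 210 bases before the start, a motif found in 6.32% of all windows. A copy of CACGTG could also form part of a carbohydrate response element, and the 2 motifs overlap in none of the 3 windows shown. CCAAT boxes begin 140 and 105 bases before the start of TXNIP, 187, 128 and 67 bases before that of ARRDC4 and 76 bases before that of MLXIP, and 32.0% of all windows hold at least 1. The cAMP response element TGACGTCA lies 57 bases before the start of MLXIP and is found in 1.63% of all windows. It was not found in the windows of the other 5 genes. These matches describe letters and not binding.

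TXNIP (ENSG00000265972.6) lies on chromosome 1 from 145992435 to 145996579 on the minus strand of hg38 and has 8 exons. Its normalized counts were 95082, 94060.1 and 93986 in the DMSO libraries and 72052, 70921 and 71934 in the BRL-50481 libraries. The replicates lay close together, with a coefficient of variation of 0.649% in DMSO and 0.868% in BRL-50481, and the groups did not overlap. The mean fell from 94376 ± 612 to 71636 ± 622 (SD, n = 3), a log2 fold change of -0.40 (SE 0.041, 95% interval -0.49 to -0.31). The adjusted p-value was 2.97e-06 in limma, and the two-sided exact permutation test over libraries gave p = 0.1, the smallest that 3 against 3 allows.

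TXNIP was among the most abundant transcripts of these cells, 52nd of the 14738 genes with a length per kilobase of transcript. By mean normalized count, which is not adjusted for length, it was 7th of the 15246 genes. Within single libraries it ranked 9th to 10th with DMSO and 10th to 14th with BRL-50481, and it took 0.287% to 0.292% of all reads on genes with DMSO and 0.229% to 0.233% with BRL-50481. Its fall was moderate in relative terms, since 19.2% of all genes tested fell further. Of the 34 genes with a mean of at least 50000, 22 were lower (64.7%) and 7 higher. Quantile normalization, which assigns each gene the value of its rank, reduced the TXNIP log2 fold change to -0.12 (adjusted p = 0.0417 in limma). TXNIP was called lower under all 18 alternatives.

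ARRDC4 (ENSG00000140450.9, chromosome 15 from 97960703 to 97973833, plus strand) is the alpha-arrestin closest to TXNIP in its regulation by MondoA and, like TXNIP, is known to restrain glucose uptake. Its normalized counts were 1309, 1183 and 1219.6 in DMSO and 777, 733 and 720.2 in BRL-50481. Every BRL-50481 library lay well below every DMSO library. The mean fell from 1237 ± 64.5 to 744 ± 29.9 (SD, n = 3), a log2 fold change of -0.73 (SE 0.067, 95% interval -0.88 to -0.59, adjusted p = 1.09e-06 in limma). This was the largest change among the 6 genes, and 6.92% of all genes tested fell further. It was called under all 18 alternatives, with log2 fold changes of -0.78 to -0.69, and the exact permutation p was 0.1.

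MLXIP (ENSG00000175727.15, chromosome 12 from 122078756 to 122147344, plus strand, 17 exons) encodes MondoA itself. It was measured at 3793, 3308 and 3294 normalized counts in DMSO and at 2692, 2792 and 2739 in BRL-50481. DMSO replicate 1 was the highest library, and the groups did not overlap. The mean fell from 3465 ± 284 to 2741 ± 50.1 (SD, n = 3), a log2 fold change of -0.34 (SE 0.061, 95% interval -0.47 to -0.20, adjusted p = 0.000371 in limma, exact permutation p = 0.1). Without DMSO replicate 1 the log2 fold change was -0.27, and MLXIP was called lower under all 18 alternatives.

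ARRDC1 (ENSG00000197070.14, chromosome 9 from 137605685 to 137615360, plus strand) recruits the ESCRT-I subunit TSG101 to the plasma membrane and drives the budding of small vesicles there. Its normalized counts were 1251, 1639.8 and 1625 in DMSO and 1234, 1258 and 1258 in BRL-50481. DMSO replicate 1 sat at the level of the treated libraries, and the groups overlapped. The mean fell from 1505 ± 220.3 to 1250.1 ± 13.8 (SD, n = 3), a log2 fold change of -0.26 (SE 0.090, 95% interval -0.45 to -0.06, adjusted p = 0.0254 in limma, exact permutation p = 0.3). ARRDC1 was called in 11 of 18 alternatives. Without DMSO replicate 1 the log2 fold change was -0.38 (adjusted p = 6.64e-08 in limma), and without any 1 of the other 5 libraries ARRDC1 was no longer called, with adjusted p-values up to 0.117 in limma. With all libraries kept, the call was lost under quantile normalization (-0.22, adjusted p = 0.0598 in limma) and in limma without a trend (adjusted p = 0.114), and the log2 fold change was -0.16 after the length and GC correction. In GENCODE, 183 exon bases of ARRDC1 are shared with the gene ENSG00000283411 on the same strand, a gene not analysed here. Whether reads from those bases were counted for ARRDC1 was not tested.

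ARRDC2 (ENSG00000105643.11, chromosome 19 from 18001132 to 18014102, plus strand) is among the less studied alpha-arrestins. It stood at 1289, 1435 and 1373 normalized counts in DMSO and at 1151, 1277 and 1126 in BRL-50481. The highest treated library was just below the lowest DMSO library. The mean fell from 1366 ± 73.4 to 1185 ± 81.0 (SD, n = 3), a log2 fold change of -0.21 (SE 0.069, 95% interval -0.35 to -0.06, adjusted p = 0.0201 in limma, exact permutation p = 0.1). ARRDC2 was called in 12 of 18 alternatives, and it was no longer called without DMSO replicate 2 or 3 or BRL-50481 replicate 1 or 3, with adjusted p-values up to 0.101 in limma.

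ARRDC3 (ENSG00000113369.9, chromosome 5 from 91368631 to 91383317, minus strand) is known in breast cancer as a suppressor of invasion that sends beta-4 integrin to degradation. Its normalized counts were 3623, 3433 and 3458 in DMSO and 3750.0, 3731 and 3609 in BRL-50481. The lowest treated library fell below the highest DMSO library. The means were 3505 ± 103 and 3696 ± 76.7 (SD, n = 3), a log2 fold change of 0.08 that did not pass the test (SE 0.049, 95% interval -0.03 to 0.18, adjusted p = 0.194 in limma, exact permutation p = 0.2). ARRDC3 passed the threshold as higher without DMSO replicate 1 (0.10, adjusted p = 0.0383 in limma) and under quantile normalization (0.13, adjusted p = 0.0342).

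**Figure D2:**
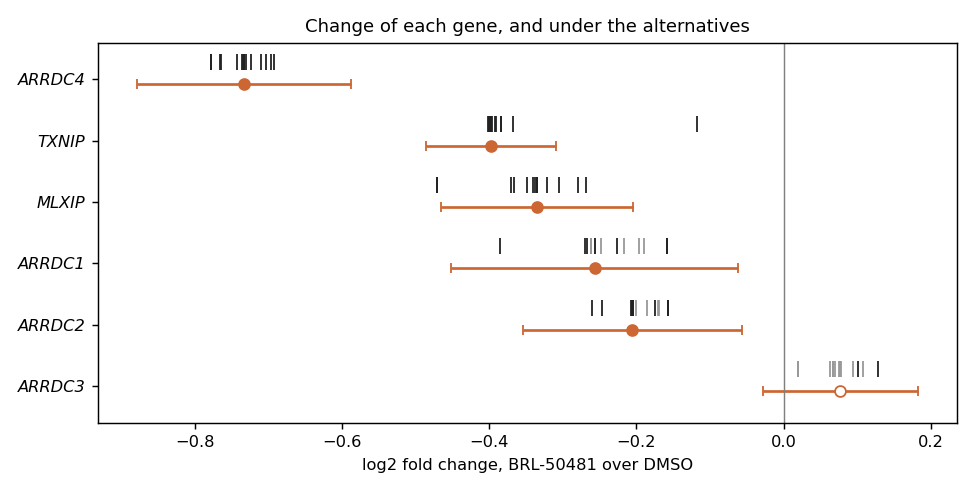
Log2 fold change of each gene, BRL-50481 over DMSO, with the limma estimate as a point, its 95% interval as a bar, and ticks for the 18 alternatives (dark where called, grey where not). ARRDC4 is farthest from 0 at -0.73, ARRDC3 alone lies above 0 at 0.08, and a single TXNIP tick stands apart at -0.12, that of quantile normalization.

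The ratio of TXNIP to each other gene was taken within each library, where the scaling of the library cancels. The log2 ratio of TXNIP to ARRDC4 was 6.18, 6.31 and 6.27 in DMSO and 6.53, 6.59 and 6.64 in BRL-50481. Its mean was higher by 0.34 and the groups did not overlap, ARRDC4 having lost a larger share of its mRNA than TXNIP. The log2 ratio of TXNIP to ARRDC3 moved the other way, from 4.75 ± 0.033 to 4.28 ± 0.036 (SD, n = 3), and that of TXNIP to ARRDC2 from 6.11 ± 0.086 to 5.92 ± 0.11 (SD, n = 3), both without overlap. The ratios to MLXIP (difference -0.06) and ARRDC1 (-0.14) overlapped between the groups. The two-sided exact permutation p was 0.1 for ARRDC2, ARRDC3 and ARRDC4, the smallest possible, and 0.4 for MLXIP and ARRDC1, or 0.167 and 0.4 after Benjamini-Hochberg adjustment over the 5 ratios.

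**Figure D3:**
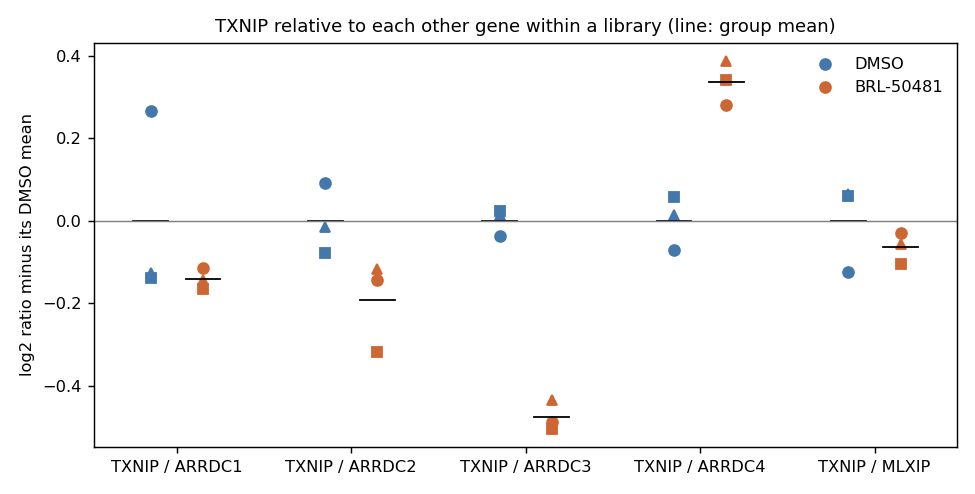
Log2 ratio of the normalized count of TXNIP to that of each other gene, by library, less its mean over the DMSO libraries. The BRL-50481 points lie above DMSO for ARRDC4, below it for ARRDC2 and ARRDC3, and in a range that overlaps DMSO for ARRDC1 and MLXIP.

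Levels were compared between genes per kilobase of canonical transcript. The sample labels describe selection of mRNA with oligo-dT and the series design describes ribosomal RNA depletion, and the part of the library type in these levels was not tested. TXNIP stood at 32487 ± 211 normalized counts per kilobase in the DMSO group and at 24659 ± 214 after BRL-50481 (SD, n = 3), and ranked 52nd of 14738 genes with a length. In DMSO, TXNIP was 33.6 times the next gene, ARRDC1, at 967 ± 142 per kilobase. ARRDC3 followed at 827 ± 24.3, ARRDC2 at 546 ± 29.3, MLXIP at 413 ± 33.9 and ARRDC4 at 305 ± 15.9. ARRDC1 and ARRDC3 overlapped, and no other neighbours in this order did. In BRL-50481, ARRDC3 stood above ARRDC1 at 872 ± 18.1 against 803 ± 8.86 per kilobase, without overlap. ARRDC2 followed at 474 ± 32.4, MLXIP at 327 ± 5.97 and ARRDC4 at 183 ± 7.35, and none of these neighbours overlapped.

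**Figure D4:**
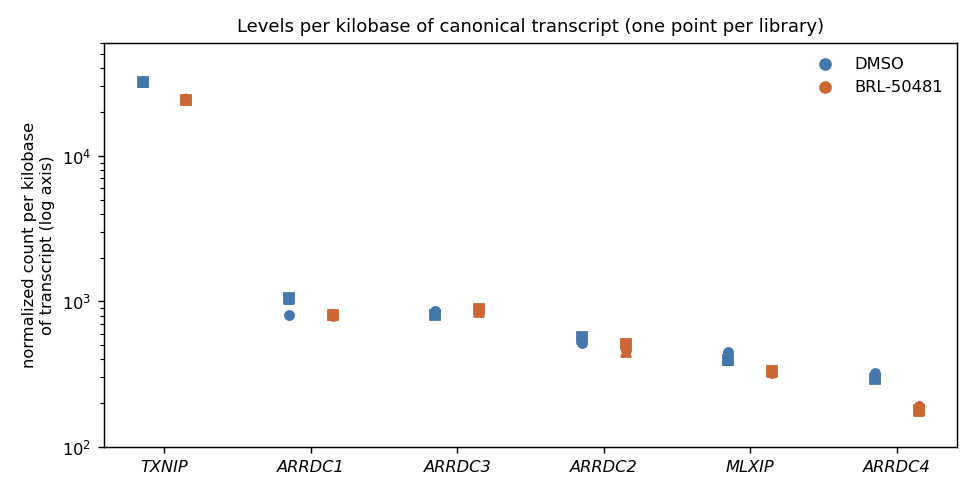
Normalized count per kilobase of canonical transcript for each gene, on a log axis, by group, with a point for each library. TXNIP lies far above the other 5 genes in both groups, and ARRDC1 and ARRDC3 overlap in DMSO and not in BRL-50481.

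The genes with a pattern most like TXNIP over the 6 libraries were PAICS, TFDP1, DNTTIP2, EDN1 and MCAM, in this order. Likeness was the root mean square difference of the log2 values after centring each gene on its DMSO mean, over 11454 other genes with a mean of at least 100, and it ran from 0.0115 for PAICS to 0.0169 for MCAM. PAICS, an enzyme of purine synthesis, fell from 14290.0 ± 115 to 10842 ± 120 normalized counts (SD, n = 3). All genes of a library share its depth and scaling, so this measure describes these libraries only. MLXIP ranked 715th by the same measure, ARRDC2 2734th, ARRDC1 2984th, ARRDC4 4587th and ARRDC3 6348th. A larger or smaller fall than that of TXNIP counts as a difference in this measure. The Pearson correlation with TXNIP was 0.992 for ARRDC4, 0.932 for MLXIP, 0.795 for ARRDC2, 0.687 for ARRDC1 and -0.781 for ARRDC3. It was taken over all 6 libraries and so includes the difference between the groups. Any gene whose groups lie far apart has a value near 1 or -1, and 64.2% of all genes tested did not overlap. Whether these genes vary together within a group was not tested.

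Genes around these 6 were followed in 9 lists, whose counts are given beside the 58.7% of all genes called in either direction. In the MLX and MAX network, which holds the partners and rivals of MondoA, 10 genes were tested, 5 were lower, 2 higher and 3 not called, with a median log2 fold change of -0.20. MYC fell by 1.17 on the log2 scale (adjusted p = 1.63e-09 in limma), from 27641 ± 1435 to 12291 ± 177 normalized counts (SD, n = 3). MXI1, a MAX partner that opposes MYC, fell by 0.81, and MAX, the partner they share, fell by 0.49. MXD3, also an opponent of MYC, rose by 0.87. MLX, the partner of MondoA, fell by 0.19 (adjusted p = 0.0126 in limma), while MLXIPL, which encodes ChREBP, the MondoA paralog of liver and fat, had a log2 fold change of -0.20 that did not pass the test (adjusted p = 0.270). These last 2 were named after their values were seen.

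Among glucose-responsive targets of MondoA and ChREBP other than TXNIP and ARRDC4, 10 of 13 genes were tested, 5 were lower, 1 higher and 4 not called, with a median of -0.09. RGS16, a regulator of G protein signalling, fell by 2.10, from 737 ± 42.1 to 172 ± 9.19 normalized counts (SD, n = 3, adjusted p = 2.15e-09 in limma). The most abundant genes of the list differed little, since lactate dehydrogenase LDHA had a log2 fold change of -0.01 and ATP citrate lyase ACLY one of -0.05, both not called, and the desaturase SCD rose by 0.17. The transcription factor KLF10 fell by 0.86 and the glycolytic regulator PFKFB3 by 0.70, both named after their values were seen. The list had 3 calls in all without BRL-50481 replicate 3, against 6 with it. PKLR, GPD1 and G6PC1 were not analysed here.

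In the thioredoxin system, where TXNIP binds thioredoxin, 8 of 12 genes were lower, 2 higher and 2 not called, with a median of -0.28. Thioredoxin reductase TXNRD1 fell by 0.39, the peroxiredoxin PRDX1, which reduces peroxides, fell by 0.68, and its relative PRDX6 fell by 0.44. TXNRD3, a low-abundance reductase, rose by 1.48, from 105 ± 18.5 to 291 ± 22.2 normalized counts (SD, n = 3). Thioredoxin itself, TXN, named after its values were seen, fell by 0.28 (adjusted p = 0.000592 in limma).

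Of 14 glucose transporters and hexokinases tested, 5 were higher, 2 lower and 7 not called, with a median of 0.07. The share called was 50.0%, against 58.7% of all genes tested. SLC2A1, which encodes the TXNIP cargo GLUT1, rose by 0.26, from 12387 ± 406 to 14834 ± 492 normalized counts (SD, n = 3, adjusted p = 0.000329 in limma). SLC2A3, which encodes GLUT3, fell by 0.61, although its reads may be shared with its close paralog SLC2A14. SLC2A4, which encodes GLUT4, fell by 1.23 from a low level of 69.2 ± 1.47 normalized counts, and the fructose transporter SLC2A5 rose by 1.31 from 20.1 ± 9.73 (SD, n = 3). Hexokinase HK1 was not called, with a log2 fold change of 0.11 at an adjusted p-value of 0.0504 in limma. SLC2A2 and HK3 were not analysed here, and SLC2A9 did not pass the filter.

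Of 11 NEDD4 family ubiquitin ligases and adaptors, the partners that alpha-arrestins recruit, 6 were higher, 2 lower and 3 not called, with a median of 0.35. NEDD4L rose by 0.35 (9372 ± 401 to 11898 ± 139 normalized counts, SD, n = 3), SMURF2 by 0.66 and ITCH, a ligase known to act on TXNIP, by 0.35. HECW1 rose by 1.40 from a low level of 33.1 ± 9.78 normalized counts (SD, n = 3). NDFIP2, a membrane adaptor that activates these ligases, fell by 0.34.

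The remaining lists had fewer calls or few genes. Of 6 other arrestin-fold genes tested, 2 were higher, 1 lower and 3 not called (median 0.07). Beta-arrestin ARRB2 fell by 1.08 and RGP1 rose by 0.71, VPS26A, a retromer subunit, rose by 0.14, and ARRB1 (0.04) and DSCR3, now named VPS26C (-0.08), were not called. ARRDC5, SAG and ARR3 were not analysed here. For AMP-activated protein kinase and its activator STK11, 5 of 7 genes were not called (median -0.02), among them PRKAA1 (-0.02) and PRKAG2 (-0.04), whereas PRKAA2 rose by 0.29 and STK11 fell by 0.16 (adjusted p = 0.0216 and 0.048 in limma). Both calls were lost when DMSO replicate 2 or 3 or BRL-50481 replicate 1 or 2 was left out, and 1 gene was called without BRL-50481 replicate 3. PRKAG3 was not analysed here.

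For ESCRT-I, VPS4 and the associated factor ALIX, a list around the vesicle budding that ARRDC1 drives, 8 of 12 genes were not called, 3 were lower and 1 was higher (median -0.09). VPS37C fell by 0.57, VPS37B by 0.22 and UBAP1 by 0.21, and PDCD6IP, which encodes ALIX and is neither an ESCRT-I subunit nor VPS4, was the gene that rose (0.22). Without DMSO replicate 1 this list had 7 calls in all, against 4 with it. Of the 2 genes for ARRDC3 cargo, 1 was higher and 1 was not called. ITGB4, which encodes beta-4 integrin, rose by 1.23, from 4161 ± 95.9 to 9765 ± 443 normalized counts (SD, n = 3, adjusted p = 1.5e-09 in limma). The thrombin receptor F2R was not called (log2 fold change -0.0028, adjusted p = 0.970 in limma).

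**Figure D5:**
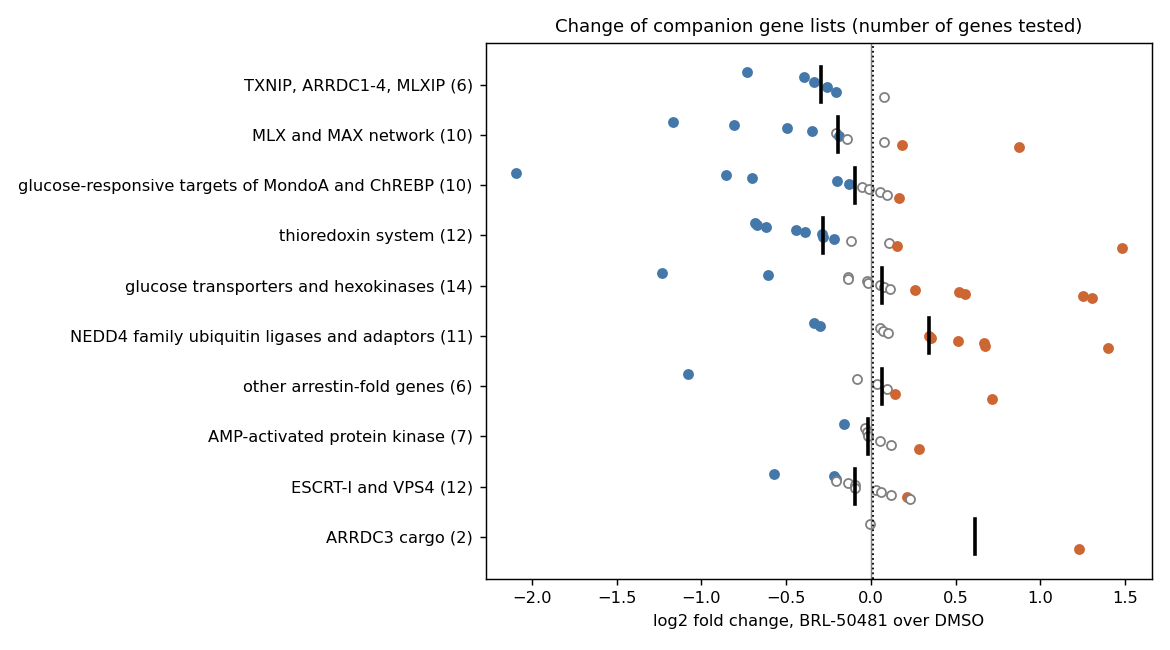
Log2 fold change, BRL-50481 over DMSO, of every gene tested in the 6 genes and the 9 lists, 1 row per list, with a vertical mark at the list median, a dotted line at the median of all genes (0.015), and blue points for lower, orange for higher and open for not called. The NEDD4 family lies mostly above 0 with a median of 0.35, and the thioredoxin system mostly below it with a median of -0.28.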

How the data were processed

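RNA sequencing of 6 MDA-MB-231 libraries was analysed, grouped by their treatment labels. According to the Methods, the authors aligned 76-base single-end reads to hg38 with STAR 2.7.1a, counted them by strand over UCSC genes with htseq-count (reverse mode), and normalized them with DESeq2 1.28. The deposited signal is the count divided by the library's size factor. The table's 5 columns of the authors' statistics (mean, fold change, error and p-values) were not used.

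The study's filter, 3 or more libraries with normalized counts of 4 or more, left 15246 genes to test and took out 405. The test was limma 3.58.1 in R 4.3.3 (lmFit, eBayes with a trend) on log2(normalized count + 1), with group as the only term, so fold changes of low genes are understated. Calls are Benjamini-Hochberg adjusted p-values under 0.05 over all genes tested. Whole reads could be recovered from every value (tolerance 1e-06), and served edgeR 4.0.16 and DESeq2 1.42.0 as alternatives. Gene positions and lengths come from GENCODE on hg38, and promoters from RefSeq. Named genes are the 6 members, the 3 most abundant tested genes and the largest called rise and fall of each list, and the 5 genes most like TXNIP. The fit was tested on simulated data. The members and lists were chosen with earlier results of these data known. A few list genes are not reported here.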

Additional observations from a re-analysis of the deposited data

How the results depend on the processing

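Over 18 alternatives, 93 of the 108 values of the 6 genes kept their direction and their side of the threshold, 13 lost a call, 2 gained one and 0 changed sign. TXNIP, ARRDC4 and MLXIP were called in every alternative. Quantile normalization gave ARRDC1 -0.22, ARRDC2 -0.16 (both no longer called) and ARRDC3 0.13 (called). limma without a trend no longer called ARRDC1 (-0.26) or ARRDC2 (-0.21), and left 3 genes called in the glucose-responsive list (6 in the report) and 0 in the AMP-activated protein kinase list (2 in the report), which had 1 after median centring. The causes were not tested. Leaving out each library in turn gave log2 fold changes of -0.38 to -0.19 for ARRDC1, -0.26 to -0.17 for ARRDC2 and 0.063 to 0.10 for ARRDC3. It gave 0 to 2 calls for AMP-activated protein kinase (1 without BRL-50481 replicate 3, and 0 without DMSO replicate 2 or 3 or BRL-50481 replicate 1 or 2), 3 to 7 for the glucose-responsive list (3 without BRL-50481 replicate 3) and 4 to 7 for ESCRT-I and VPS4 (7 without DMSO replicate 1). The length and GC correction moved ARRDC1 to -0.16, ARRDC3 to 0.020 and MLXIP to -0.47, and the counts of the AMP-activated protein kinase list to 3 and of ESCRT-I and VPS4 to 6.

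Replicate numbers are shared by the groups, and whether they pair the libraries was not established. Same-numbered libraries correlated at 0.121, 0.104 and 0.0514. Each DMSO library correlated best with its own number, whereas BRL-50481 replicate 3 correlated slightly better with DMSO replicate 2 (0.0607). With the replicate number as a block, 4440 genes were higher and 4589 lower, no call among the 6 genes changed (ARRDC1 adjusted p = 0.0128 in limma), and ESCRT-I and VPS4 had 6 calls.

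The median of all genes moved by at most 0.030, to 0.045 under median centring. With 3 libraries a group, the exact permutation test cannot go below 0.1.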

Other observations

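The antisense transcripts of these loci were measured apart from them, since the authors' counting used strand. ARRDC1-AS1, which shares 35 exon bases with ARRDC1 on the opposite strand, stood at 259 ± 25.8 normalized counts with DMSO and 279 ± 20.9 with BRL-50481 (SD, n = 3), a log2 fold change of 0.11 that did not pass the test (adjusted p = 0.410 in limma). ARRDC3-AS1, which shares 145 exon bases with ARRDC3, did not pass the filter and ranged from 0 to 9.06 normalized counts. PDE7A, which encodes the enzyme that BRL-50481 inhibits, fell from 406 ± 2.06 to 298 ± 40.6 normalized counts (SD, n = 3, log2 fold change -0.45, adjusted p = 0.00199 in limma). It was named after its values were seen.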
